A study of Danio rerio with 72 samples.

Results

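The liver makes most of the proteins of blood plasma, and the genes described here are those of the apolipoproteins, serpins, complement factors, inter-alpha-trypsin inhibitor heavy chains, clotting factors and carrier proteins that it secretes. They were picked by gene symbol, by a rule chosen with earlier results of these data known. A gene was a member if its symbol, in any case, began with APOA, APOB, APOC, SERPINA, SERPINC, SERPIND, SERPINF, ITIH or FETU. It was also a member if the symbol was FGA, FGB, FGG, TTR, VTN, HPX, AHSG, F2 or PLG, or C3, C5, C8 or C9 with any suffix for a gene copy. The rule found 54 of the 31902 entries of the count table, namely 13 apolipoproteins, 10 serpins, 13 complement genes, 7 inter-alpha-trypsin inhibitor heavy chains, 5 clotting and fibrinolysis genes and 4 genes of carrier, fetuin or adhesion proteins. The remaining 2 entries, both named APOBEC2, encode cytidine deaminases that are not plasma proteins and entered only because their symbol begins with APOB. HPX and AHSG were not analysed here. The label of liver secretion describes the members by their best known source and was checked against liver markers below.

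The libraries came from SR4G transgenic zebrafish, in which glucocorticoid response elements drive the short-lived green fluorescent protein d4EGFP, so every group carries the reporter. From day 0 to day 6 after fertilization the water held either fluoxetine at 54 ug/L, an antidepressant that blocks serotonin reuptake, or 0.0053% ethanol alone, which is called vehicle here. Heads were taken at 6 days, in pools of 22, and the hypothalamus and telencephalon of fish exposed in the same early window were taken at 6 months, in pools of 5. Each tissue had 4 groups of 6 libraries, namely fluoxetine stressed, fluoxetine unstressed, vehicle stressed and vehicle unstressed, which gives 72 libraries. The stressor is not given in the sources used here. The labels give no clutch or sex for the pools, and do not say that pools with the same number share fish, so p-values measure the spread between these pools. Titles of the larval libraries say whole where those of adults name a brain region, while the tissue label says head.

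Apolipoproteins hold lipoprotein particles together and direct their lipid between tissues. Serpins are inhibitors that trap serine proteases of the clotting, fibrinolytic and inflammatory pathways, although some serpins carry hormones instead. Complement factors form a cascade in which C3 tags surfaces and C5, C8 and C9 build a membrane pore. Inter-alpha-trypsin inhibitor heavy chains are linked to hyaluronan in the matrix, and the fibrinogen chains make the clot that plasmin dissolves. In fish as in mammals the liver is the main source, but the yolk syncytial layer and the intestine also make apolipoproteins, and astroglia, microglia, meninges and vessels of the brain make some apolipoproteins, complement factors and serpins. Roles named below are those known for the mammalian proteins.

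Levels are given in CPM, a gene's count scaled to a common library size, with library sizes corrected by TMM, edgeR's trimmed mean of M-values, within each tissue, so a level in one tissue and in another were scaled separately. No gene lengths were available, so differences in CPM between genes also depend on gene length. Statements on which members had the most counts, and sums over genes, therefore refer to counts and not to numbers of transcripts. Libraries held 10188323 to 19857970 counts in larval heads, 13243434 to 22823560 in hypothalamus and 14210173 to 20960691 in telencephalon. Stress labels fitted the reporter in larval heads, where d4EGFP was at 67.9 to 129.6 CPM in stressed and 12.1 to 43.6 CPM in unstressed libraries, without overlap. In the hypothalamus d4EGFP overlapped, at 48.9 to 182.5 CPM in stressed and 19.4 to 54.2 CPM in unstressed libraries, and in the telencephalon it did not, at 39.6 to 143 CPM in stressed and 9.12 to 32.1 CPM in unstressed libraries. In every tissue FKBP5, a glucocorticoid-induced co-chaperone, was higher in all 12 stressed than in all 12 unstressed libraries. Regions matched their labels by agrp, a neuropeptide gene of the hypothalamus, which was at 15.1 to 144 CPM in hypothalamus and 0 to 0.562 CPM in telencephalon. One set of libraries stood apart: replicates 1 to 3 of the vehicle unstressed larval heads held 1.6%, 1.06% and 1.05% of their counts in the 54 members, against 0.119% to 0.469% in the other 21 larval libraries. Because these are 3 of the 6 libraries of that control group, each larval comparison with that group is given with and without those 3 libraries.

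The members fell into a larger set at appreciable levels only in larval heads and a smaller set also present in adult brain. A count in every library was found for 50 members in larval heads and for 15 in each adult region. The median over 24 libraries was under 1 CPM for 7 members in larval heads, and for 45 in the hypothalamus and 45 in the telencephalon. The 9 members with a median of at least 1 CPM in both adult regions were serpina10a, serpinf1, apoc1, c3b.1, c3b.2, c8b, itih3a.2 and both genes named VTN (ENSDARG00000053831 and ENSDARG00000055388). They are called the adult set below.

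Classical liver transcripts were near 0 in adult brain. The median level of apoa1a, the main protein of high-density lipoprotein, was 278 CPM in larval heads, 0.0575 CPM in hypothalamus and 0.102 CPM in telencephalon. For its paralog apoa1b the medians were 209, 0.598 and 0.631 CPM in the same order of tissues. The fetuin gene fetub, whose product inhibits metalloproteinases, had a median of 206 CPM in larval heads and of 0 CPM in both adult regions. TTR, a carrier of thyroid hormone that choroid plexus makes in mammals, had a larval median of 5.09 CPM and never exceeded 0.0705 CPM in hypothalamus or 0.0604 CPM in telencephalon. The hepatocyte marker fabp10a, a fatty acid binding protein that is no member, ranged from 23.7 to 539 CPM in larval heads and did not exceed 0.364 CPM in any adult library. This marker was thus near 0 in the adult libraries and present in all 24 larval libraries.

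Within the adult set, serpina10a and apoc1 had the most counts. The serpin gene serpina10a, whose mammalian counterpart is the protein Z-dependent inhibitor of clotting factor X, ranged from 521 to 754 CPM in hypothalamus, 482 to 703 CPM in telencephalon and 130.1 to 387 CPM in larval heads. apoc1, an apolipoprotein of triglyceride-rich particles, ranged from 213 to 412 CPM in hypothalamus, 99.3 to 244 CPM in telencephalon and 87.9 to 611 CPM in larval heads. Both were abundant in every library of all 3 tissues. VTN ENSDARG00000053831, a gene for the adhesion protein vitronectin, had medians of 16.5 CPM in hypothalamus, 4.48 CPM in telencephalon and 8.85 CPM in larval heads, and the second VTN gene stood at 1.36, 1.11 and 2.5 CPM. For c3b.1 the medians were 9.24, 16.9 and 8.27 CPM in that order, for c3b.2 3.82, 6.66 and 7.98 CPM. The 6 copies named c3a stayed under 1 CPM at the median in both adult regions, so C3 counts in adult brain were mostly of the c3b copies. Reads could be split between such copies if their sequences are close, since the counting rule for shared reads is not given in the sources used here.

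**Figure D1:**
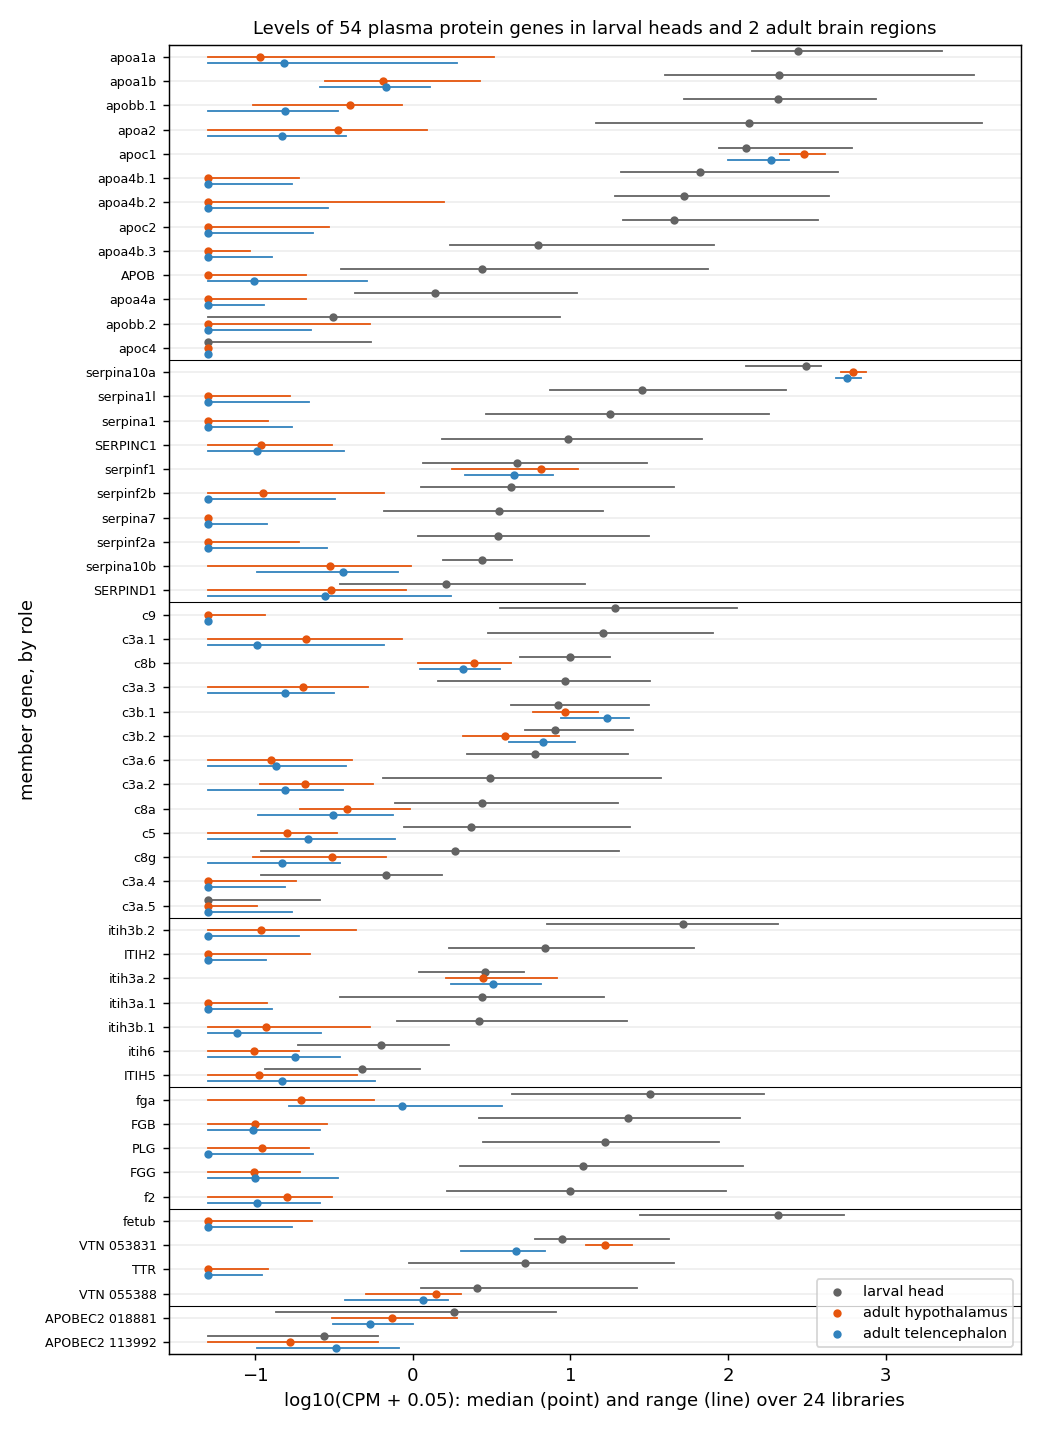
Levels of the 54 members by role, on the horizontal axis as log10 of CPM plus 0.05, with points at the median and lines over the range of 24 libraries in larval heads (grey), adult hypothalamus (orange) and adult telencephalon (blue). The 9 genes of the adult set have orange and blue points to the right of 0, while the adult medians of the others are under 1 CPM in both regions.

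In larval heads most members varied together across libraries, and replicates 1 to 3 of the vehicle unstressed group were the highest. All 3 of these libraries exceeded all 21 others in 37 of the 50 members that passed the count filter, or 74%, against 20.1% of the 20260 genes tested in larval heads. The 3 libraries were below all 21 others in 1 member, serpina10a, against 14.1% of all genes. They were singled out by the members' own share of counts, so these shares favour the members in advance and are a description only. Vehicle unstressed replicate 1 was the highest library for 43 members. At the other end stood 2 libraries of the same group, with replicate 5 the lowest for 15 members and replicate 4 the lowest for 12. The summed level of the 45 members outside the adult set ran from 814 to 1668 CPM in fluoxetine stressed, from 796 to 3959 CPM in fluoxetine unstressed and from 887 to 3580 CPM in vehicle stressed libraries. It was 14804, 9019 and 8757 CPM in vehicle unstressed replicates 1, 2 and 3, and 614, 1037 and 2465 CPM in replicates 4, 5 and 6. The vehicle unstressed group therefore held both the 3 highest sums and the lowest sum of the 24 libraries.

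**Figure D2:**
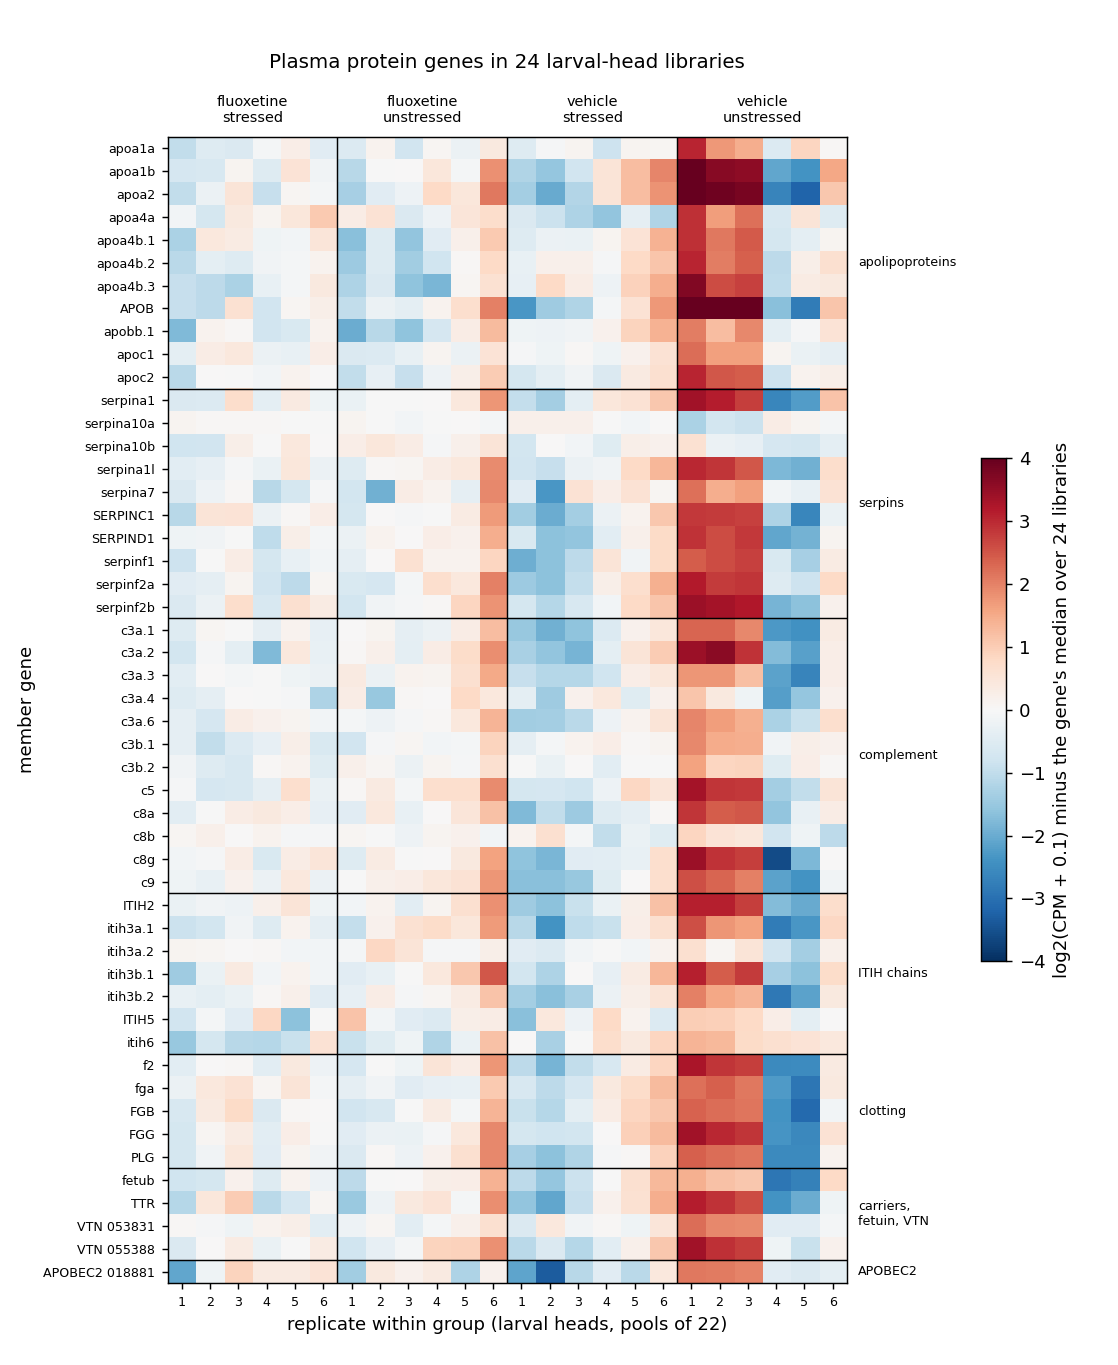
Level of the 50 members tested in larval heads (one line each, by role) in 24 libraries (columns, by group and replicate), as log2 of CPM plus 0.1 minus the gene's median over the libraries, with colours limited to 4 in either direction. Red columns mark vehicle unstressed replicates 1 to 3, blue columns replicates 4 and 5 of the same group, and serpina10a runs against the others.

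Among the apolipoproteins, 10 of the 11 tested were higher in vehicle unstressed replicates 1 to 3 than in every other larval library. apoa2, a second protein of high-density lipoprotein, was at 68.1 to 195 CPM (median 121) in fluoxetine stressed, 54.2 to 582 CPM (median 152) in fluoxetine unstressed and 33.4 to 466 CPM (median 126) in vehicle stressed libraries. It was at 4081, 1997 and 1868 CPM in vehicle unstressed replicates 1 to 3 and at 21.6, 14.4 and 284 CPM in replicates 4 to 6. The vehicle unstressed group thus held both the highest and the lowest levels of apoa2. Next, apoa1a was at 141 to 331 CPM (median 197) in fluoxetine stressed, 164 to 363 CPM (median 265) in fluoxetine unstressed, 158 to 302 CPM (median 279.7) in vehicle stressed, and at 2285, 931, 752, 191, 508 and 289.7 CPM in vehicle unstressed replicates 1 to 6. For this gene replicate 5 came next in the group after the 3 that stood apart, although 15 members had their lowest level in that library. apoa1b was at 130.3 to 308 CPM (median 168) in fluoxetine stressed, 97 to 743 CPM (median 209) in fluoxetine unstressed and 71.9 to 812 CPM (median 210.1) in vehicle stressed heads. It was at 3664, 2624 and 2522 CPM in vehicle unstressed replicates 1 to 3, and at 49.9, 39.6 and 608 CPM in replicates 4 to 6. Replicates 4 and 5 of the vehicle unstressed group were again the lowest. APOB, the structural protein of very-low-density lipoprotein, was at 74.4, 55.7 and 53.3 CPM in the first 3 replicates and at 0.299 to 11.2 CPM in the other 21 libraries. The apolipoprotein that did not separate fully was apobb.1, at 60.7 to 231 CPM (median 175) in fluoxetine stressed, 52.2 to 506 CPM (median 113) in fluoxetine unstressed and 181 to 543 CPM (median 214) in vehicle stressed heads, with 868, 488 and 792 CPM in vehicle unstressed replicates 1 to 3 and 158, 203 and 308 CPM in replicates 4 to 6. The neighbouring genes apoa4b.1, apoa4b.2 and apoa4b.3, whose relatives are made by intestine as well as yolk and liver, reached 500.3, 435 and 81.8 CPM in replicate 1. In the other groups apoa4b.1 was at 27.7 to 92.3 CPM (median 71.5) in fluoxetine stressed, 20.8 to 136 CPM (median 47.3) in fluoxetine unstressed and 46.2 to 172 CPM (median 64.3) in vehicle stressed heads, against 500.3, 289, 359, 40.5, 50.8 and 71.9 CPM in vehicle unstressed replicates 1 to 6. The first 3 of these were above every other larval library. apoc2, the cofactor of lipoprotein lipase, was at 372, 254 and 245 CPM in replicates 1 to 3 against 21.6 to 91.6 CPM elsewhere, and apoc1 at 611, 411 and 410.1 CPM against 87.9 to 196 CPM. Another 2 members of the class did not pass the count filter: apoc4, which reached at most 0.495 CPM, and apobb.2, at 7.43, 3.95 and 8.54 CPM in the first 3 replicates and at 0 to 0.505 CPM in the rest.

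The serpins split into a large group that followed the apolipoproteins and serpina10a, which went the other way. serpina1, the counterpart of alpha-1-antitrypsin, was at 182, 158 and 120.4 CPM in vehicle unstressed replicates 1 to 3 and at 2.85 to 61 CPM in the other 21 libraries. SERPINC1, which is antithrombin, was at 68.6, 66.8 and 64 CPM against 1.49 to 31.1 CPM, and serpinf2b, a counterpart of alpha-2-antiplasmin, at 45.2, 42.8 and 39 CPM against 1.07 to 14.7 CPM. In all, 7 of 10 serpins were higher in those 3 libraries than in all others. serpina10a was at 309 to 339 CPM (median 322) in fluoxetine stressed, 291 to 337 CPM (median 311) in fluoxetine unstressed and 289 to 362 CPM (median 338) in vehicle stressed libraries. It was at 130.1, 189 and 173 CPM in vehicle unstressed replicates 1 to 3 and at 387, 334 and 294 CPM in replicates 4 to 6. The 3 libraries that were highest for the other serpins were thus lowest for this one, which is also one of the 2 serpins of the adult set. Neither serpina10b, at 4.24, 2.28 and 2.15 CPM in the 3 libraries and 1.51 to 3.91 CPM elsewhere, nor serpina7, a relative of thyroxine-binding globulin, at 16.2, 9.62 and 10.9 CPM and 0.605 to 13.5 CPM, separated them.

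Complement genes gave the same order with less separation for the copies found in adult brain. c9, whose product lines the membrane pore, was at 114, 97.2 and 77.9 CPM in vehicle unstressed replicates 1 to 3, at 4.28, 3.53 and 17.2 CPM in replicates 4 to 6 and at 3.53 to 64.9 CPM over the 21 libraries. c3a.1 was at 80.7, 80.7 and 61.3 CPM in those 3 libraries and 2.94 to 38 CPM elsewhere, and c5 at 23.8, 17.2 and 16.9 CPM against 0.832 to 8.82 CPM. The 3 chains of C8 differed among themselves. c8a was at 20.1, 14.7 and 15.6 CPM in vehicle unstressed replicates 1 to 3 against 0.723 to 6.23 CPM elsewhere, and c8g at 20.3, 13.9 and 12.8 CPM against 0.0594 to 5.73 CPM. c8b, the only chain in the adult set, was at 17.9, 14.4 and 13.7 CPM against 4.76 to 15.5 CPM and so overlapped the other libraries. c3b.1 and c3b.2 were above all other libraries, but at 31.5, 23.3 and 23 CPM against 4.16 to 15.4 CPM for c3b.1 and at 24.8, 14.6 and 15 CPM against 5.13 to 12.6 CPM for c3b.2. Of 12 complement genes tested, 9 were above in all 3, with c3a.3, c3a.4 and c8b the exceptions, and c3a.5 did not pass the count filter.

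All 5 clotting and fibrinolysis genes were higher in vehicle unstressed replicates 1 to 3 than in every other larval library. f2, prothrombin, was at 96.6, 72.6 and 67.9 CPM there, at 1.6, 1.64 and 12.9 CPM in replicates 4 to 6 and at 1.6 to 33.7 CPM over the 21 libraries. The fibrinogen alpha chain gene fga was at 146, 169 and 137 CPM in the 3 libraries and at 4.23 to 76.7 CPM elsewhere, the beta chain gene FGB at 119, 109.9 and 104 CPM against 2.59 to 59.23 CPM, and the gamma chain gene FGG at 125, 97.2 and 88.7 CPM against 1.94 to 46.2 CPM. The 3 fibrinogen chains had the same 3 libraries at the top and the same 2, replicates 4 and 5, at the bottom. PLG, plasminogen, was at 87.1, 78.3 and 73.4 CPM against 2.73 to 62.3 CPM.

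Inter-alpha-trypsin inhibitor heavy chains separated least, with 2 of 7 above in all 3 libraries. These were ITIH2, at 60.4, 59.7 and 47.4 CPM in vehicle unstressed replicates 1 to 3 against 1.64 to 24.7 CPM in the others, and itih3b.2, at 208, 152 and 132 CPM against 7.07 to 115 CPM. itih3a.2, the heavy chain of the adult set, was at 4.46, 2.99 and 4.11 CPM against 1.05 to 5.04 CPM and did not set those libraries apart. Of the carrier, fetuin and adhesion genes, TTR was at 45.2, 38.5 and 31.5 CPM against 0.892 to 18.8 CPM and VTN ENSDARG00000055388 at 26.3, 19.4 and 17.6 CPM against 1.07 to 9.15 CPM. VTN ENSDARG00000053831 was at 42, 33.6 and 32.8 CPM against 5.92 to 13.7 CPM. fetub was at 118 to 232 CPM (median 162) in fluoxetine stressed, 101 to 543 CPM (median 226) in fluoxetine unstressed and 71.2 to 512 CPM (median 159) in vehicle stressed heads, reaching its highest value in replicate 6 of the last 2 groups. It was at 548, 467 and 433 CPM in vehicle unstressed replicates 1 to 3 and at 27.7, 31.5 and 360.2 CPM in replicates 4 to 6. The 3 libraries were therefore not separate from the rest for fetub. APOBEC2 ENSDARG00000018881, a muscle-enriched enzyme in mammals, was at 8.03, 7.8 and 7.35 CPM against 0.0864 to 3.35 CPM.

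Other liver genes and genes of several other tissues were high together with the members in these 3 libraries. Of all genes tested, 20.1% were above all other libraries there and 14.1% were below. Transferrin (tfa), a liver-secreted iron carrier that the rule does not take in, was at 696 to 870.1 CPM in vehicle unstressed replicates 1 to 3 and 11.7 to 144 CPM in the other 21 larval libraries, and 18 of 33 other hepatocyte genes tested were above all others there. The hepatocyte marker fabp10a was at 378 to 539 CPM in the 3 libraries and 23.7 to 511 CPM in the rest, which overlap. The summed level of the hepatocyte list was 4397 to 6829 CPM against 2706 to 5906 CPM, with overlap, and rbp4l, at 302 to 402 CPM against 889 to 2339 CPM, went the other way. Muscle genes summed to 30719.5 to 38083 CPM in the 3 libraries against 2728 to 22136 CPM, with 39 of 54 tested above all others. Epidermal genes summed to 13620.5 to 30751 CPM against 2866 to 17121 CPM (13 of 22 above), enterocyte genes to 2098 to 3353 CPM against 400.0 to 1792 CPM (11 of 25 above), and red blood cell genes to 454 to 749 CPM against 135 to 317 CPM (8 of 15 above). Muscle, enterocyte and red blood cell sums did not overlap between the 3 libraries and the rest. Nor did choroid plexus and meninges genes, at 1877 to 2248 CPM against 859 to 1477 CPM. Other coagulation genes, at 196 to 236 CPM against 88.5 to 151 CPM, were also without overlap. The same held for other acute-phase genes, at 356 to 447 CPM against 149 to 336 CPM. Exocrine pancreas genes summed to 1594 to 5047 CPM against 1063 to 9656 CPM, and none of the 27 tested was above in all 3. Neuronal genes summed to 2452 to 4671 CPM against 4669.7 to 7299 CPM, with 6 of 25 below all others and none above. Liver transcription factor genes, at 226 to 251 CPM against 207 to 323 CPM, had 7 of 15 above, kidney (pronephros) genes 4 of 19, and choroid plexus and meninges genes 12 of 24. The kidney share was near that of all genes. Genes of lipoprotein receptors, enzymes and transfer proteins went both ways, with 10 above and 8 below of 34. Complement genes outside the rule had 7 above and 1 below of 16. Whether more liver and trunk tissue entered these 3 pools was not tested, and in bulk samples a difference in the number of cells of a type and a difference in RNA per cell cannot be told apart.

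**Figure D3:**
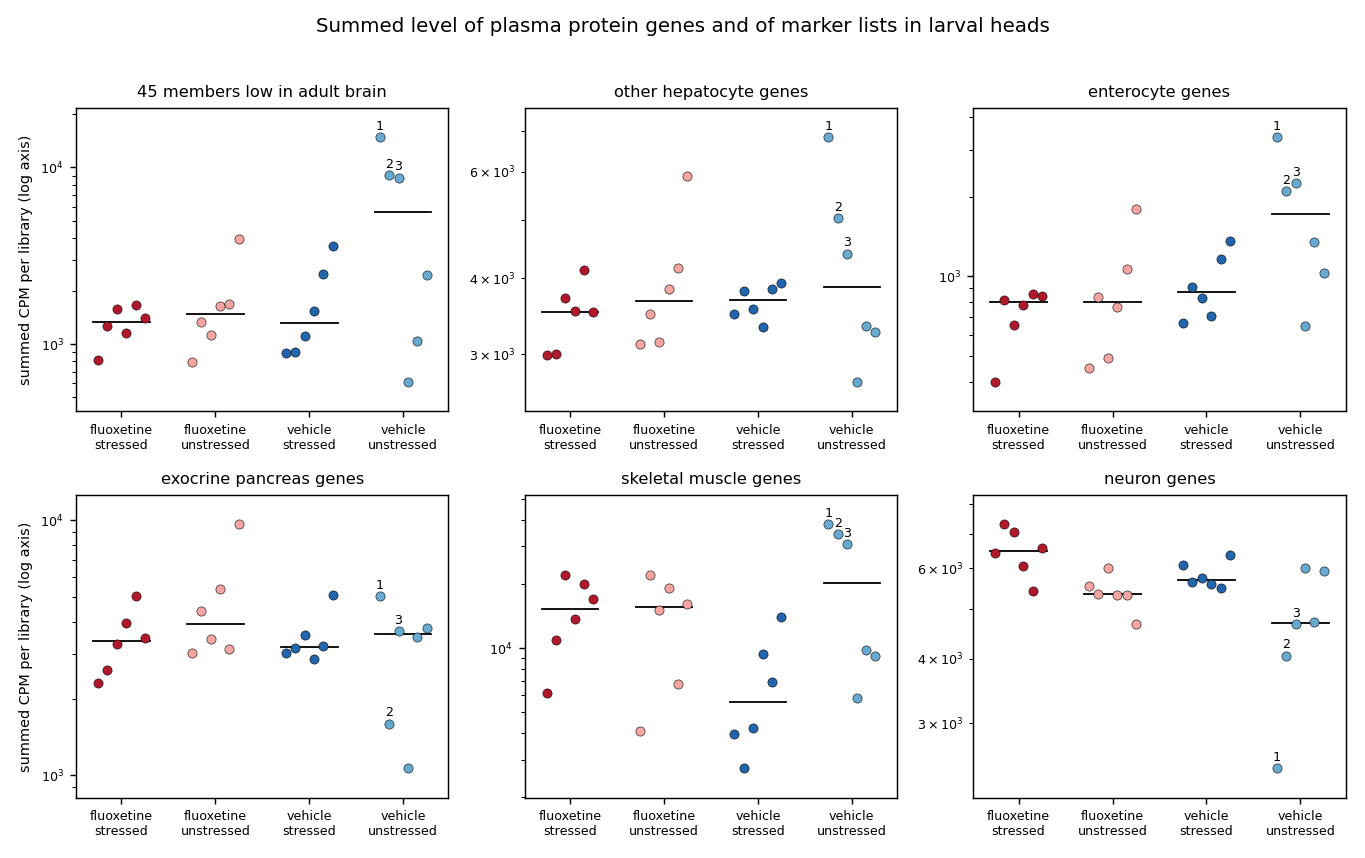
Summed CPM per larval-head library (log axis) of the 45 members outside the adult set and of 5 marker lists, by group, with 1 point per library, a line at the group median, and vehicle unstressed replicates 1 to 3 numbered. The numbered points are the highest for the members, enterocyte and muscle genes, and lie within the range of the others for exocrine pancreas genes.

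The members also varied together in the 21 libraries that remain without these 3. The correlation of a member's log2 CPM with the mean of the other members over 21 libraries had a median of 0.86 across the 50 members tested, and exceeded 0.9 for 20. It was 0.97 for PLG, 0.97 for serpina1l, 0.96 for apoa2 and 0.95 for fetub, and -0.79 for serpina10a. It was low for c8b (-0.17), ITIH5 (0.02), apoa1a (0.17) and apoa4a (0.17), so the 2 apoa1 copies did not share their order of libraries. These are descriptions over libraries that share depth and composition, with no test. The genes outside the rule most like the member mean, ranked over all 24 libraries, were led by tfa, si:ch211-113d11.5, grhprb, COMTD1 and cfhl4, with correlations of 0.96, 0.94, 0.95, 0.93 and 0.94 over the 21. After the 3 that stood apart, the next highest libraries were fluoxetine unstressed replicate 6 and vehicle stressed replicates 6 and 5, at summed levels of 3959, 3580 and 2498 CPM outside the adult set.

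Stress in vehicle larvae gave the most calls among the members, all of them downward, and none was left without the 3 control libraries that stood apart. Of 50 members tested with edgeR's quasi-likelihood test, 29 were lower in vehicle stressed than in vehicle unstressed heads at an adjusted p under 0.05 and none was higher, where 21.2% of all genes were called and 15.4% were called lower. The members were chosen with earlier results of these data known, so these shares are set side by side as a description only. The median log2 fold change was -1.72 over the members and -0.03 over all genes tested. By role, 9 of 11 apolipoproteins fell (median log2 fold change -1.71), 6 of 10 serpins (-2.0), 9 of 12 complement genes (-1.66), 1 of 7 inter-alpha-trypsin inhibitor heavy chains (-1.31), 1 of 5 clotting genes (-1.65) and 2 of 4 carrier, fetuin or adhesion genes (-1.55). The remaining call among the 29 was APOBEC2 ENSDARG00000018881, which does not encode a plasma protein. Without vehicle unstressed replicates 1 to 3 none was called, 2 members were higher and 1 lower at an unadjusted p under 0.05, and the median turned to 0.38, with 40 of 50 folds positive. The share of all genes at that unadjusted threshold is not reported here. Those 3 libraries were singled out by the members' own levels. Leaving them out lowers the control level of the members in advance, so this fit is no independent check. The count of calls was 6 with replicate number as a block, 1 in a fit of the 2 groups alone and 1 to 39 when one replicate number was left out of every group. Without replicates 4 to 6, a setting chosen after seeing the data, 44 of 51 members tested fell and 1 rose. The share of all genes called in that setting is not reported here, so this count has no background beside it.

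The lowest p-values were those of apoa4a, c8a, apoa1a, apoc2 and VTN ENSDARG00000055388. apoa4a, an apolipoprotein of chylomicrons, was at 0.379 to 1.03 CPM (median 0.605) in vehicle stressed heads and at 10.9, 4.46, 6.53, 0.832, 1.94 and 0.905 CPM in vehicle unstressed replicates 1 to 6. Unstressed replicates 1, 2, 3 and 5 were above all 6 stressed libraries, and replicates 4 and 6 lay within their range. Its log2 fold change was -2.68 ± 0.51 (SE, n = 6 each, edgeR adjusted p = 0.00165), and -0.89 without replicates 1 to 3. c8a was at 0.723 to 2.8 CPM (median 1.56) in vehicle stressed heads and at 20.1, 14.7, 15.6, 0.832, 2.19 and 3.29 CPM in vehicle unstressed ones. The log2 fold change of c8a was -2.55 ± 0.55 (adjusted p = 0.00392), and -0.39 without the 3 libraries. For apoa1a, whose values stand above, the fold was -1.71 ± 0.41 (adjusted p = 0.00693) with all libraries and -0.39 without the 3. These 3 genes kept their sign without the 3 libraries, with a smaller fold. apoc2, at 27.7 to 70.7 CPM (median 37.8) in vehicle stressed and 372, 254, 245, 25.4, 50.1 and 53.3 CPM in vehicle unstressed libraries, had a log2 fold change of -1.93 ± 0.50 (adjusted p = 0.0109) that became 0.03. VTN ENSDARG00000055388, at 1.07 to 5.39 CPM (median 1.74) in vehicle stressed and 26.3, 19.4, 17.6, 2.2, 1.29 and 2.81 CPM in vehicle unstressed libraries, had -2.30 ± 0.62 (adjusted p = 0.0132), which became 0.16. For both genes the stressed libraries overlapped unstressed replicates 4 to 6. APOB had the most negative fold, -3.34 ± 0.91 (adjusted p = 0.0145), which became 0.38.

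Other genes of these pathways were also called in this contrast, more of them lower than higher. Of all genes, 21.2% were called and 15.4% were called lower. Past the threshold were 1 higher and 8 lower of 16 complement genes outside the rule, 2 higher and 8 lower of 23 other coagulation genes and 2 higher and 12 lower of 33 other hepatocyte genes. They were joined by 0 higher and 6 lower of 15 liver transcription factor genes, 2 higher and 9 lower of 34 genes of lipoprotein receptors, enzymes and transfer proteins, and 3 higher and 5 lower of 15 acute-phase genes. Among tissue markers the counts were 0 higher and 43 lower of 54 for muscle, 0 higher and 14 lower of 25 for enterocytes, 0 higher and 7 lower of 22 for epidermis, 0 higher and 4 lower of 15 for red blood cells, 1 higher and 9 lower of 24 for choroid plexus and meninges, 1 higher and 3 lower of 19 for kidney, 3 higher and 0 lower of 25 for neurons and 0 higher and 0 lower of 27 for exocrine pancreas. Muscle genes had the highest share of calls among these lists. The share of kidney genes called lower lay near that of all genes, and the acute-phase calls went in both directions. Without vehicle unstressed replicates 1 to 3, where 2.64% of all genes were called, 1 gene of all these lists was lower, a liver transcription factor, and no muscle, neuron, red blood cell, pancreas, lipoprotein or other hepatocyte gene was called. Higher were then 1 of 16 other complement, 2 of 23 coagulation, 3 of 15 acute-phase, 4 of 22 epidermal, 1 of 25 enterocyte, 1 of 24 choroid plexus and meninges and 1 of 19 kidney genes. The part of these tissues in the members' calls was not tested.

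Fluoxetine against vehicle in unstressed larvae shares the same control libraries, and gave 9 members lower and none higher, where 10.8% of all genes were called and 7.26% called lower. They were 7 apolipoproteins, VTN ENSDARG00000053831 and c3b.1. The median log2 fold change of the 50 members was -1.37, against -0.06 over all genes. Without vehicle unstressed replicates 1 to 3 none was called, where 3.69% of all genes were, and the median became 0.83. As above, this fit drops control libraries singled out by the members' own levels, which raises the folds in advance. In that fit 13 members were higher at an unadjusted p under 0.05 with none lower. The share of all genes at this unadjusted threshold is not reported here. Without replicates 4 to 6, 45 fell and 1 rose, again with no share of all genes beside the count.

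The genes apoa4b.1, apoa4b.2, apoa4b.3, apoc1, apoa2 and apoc2 neighbour each other in the RefSeq gene order of assembly GRCz12tu, and all but apoa2 were among those called. The lowest p-values were those of apoa4b.3 and apoa4b.2. apoa4b.3 was at 1.67 to 9.42 CPM (median 3.34) in fluoxetine unstressed heads and at 81.8, 38.2, 41.6, 2.97, 7.71 and 8.19 CPM in vehicle unstressed replicates 1 to 6. The first 3 vehicle libraries were above all fluoxetine libraries, and replicates 4 to 6 within their range. The log2 fold change of apoa4b.3 was -2.77 ± 0.62 (SE, n = 6 each, edgeR adjusted p = 0.0118), and -0.51 without vehicle unstressed replicates 1 to 3. apoa4b.2 was at 19.1 to 91.3 CPM (median 33.7) in fluoxetine unstressed and at 435, 220.0, 278, 25.6, 62.2 and 82.3 CPM in vehicle unstressed heads, with a fold of -2.13 ± 0.50 (adjusted p = 0.0155) that became -0.43. These 2 genes and apoa1a, at -1.68 ± 0.41 (adjusted p = 0.0169) and -0.35, kept a negative sign. apoc2, at 22.7 to 91.6 CPM (median 37.6) in fluoxetine unstressed heads, had -1.90 ± 0.50 (adjusted p = 0.0226), which became 0.06 without the 3 libraries. apoc1, at 87.9 to 190.4 CPM (median 108) in fluoxetine unstressed and 611, 411, 410.1, 142, 108 and 102 CPM in vehicle unstressed heads, had -1.30 ± 0.35 (adjusted p = 0.0254), which became 0.04. For both, the remaining 3 vehicle libraries lay among the fluoxetine libraries.

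**Figure D4:**
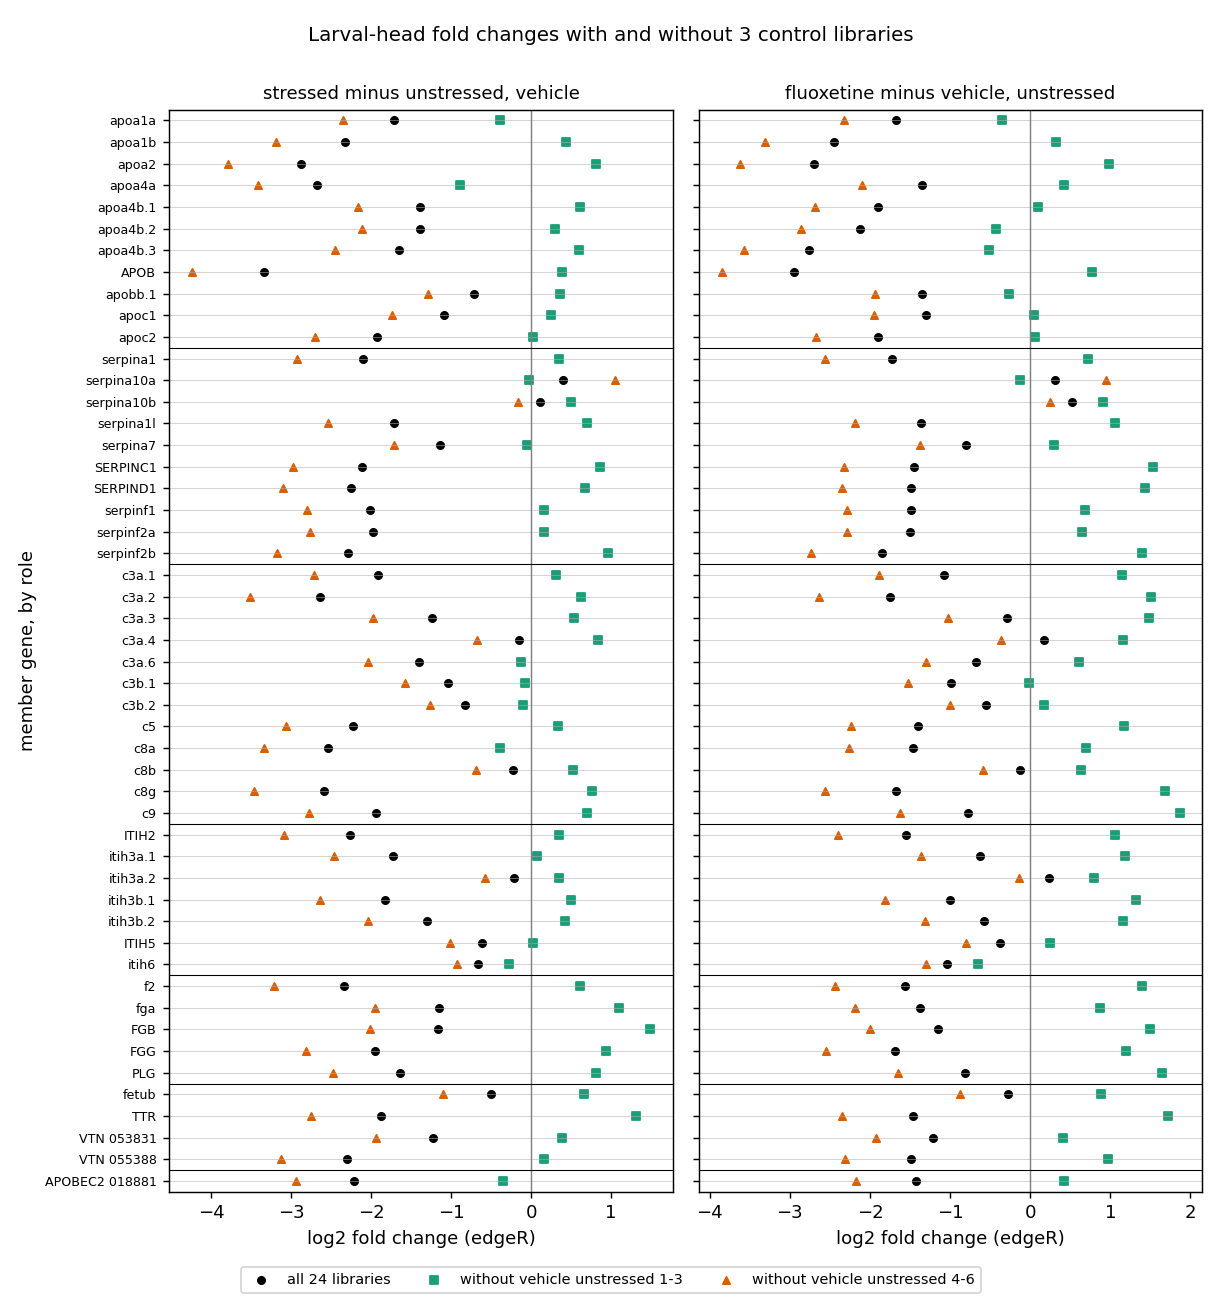
log2 fold changes of the 50 members tested in larval heads, by role, for stressed minus unstressed vehicle larvae (left) and fluoxetine minus vehicle in unstressed larvae (right), with all 24 libraries (black), without vehicle unstressed replicates 1 to 3 (green) and without replicates 4 to 6 (orange). Without replicates 1 to 3 the median is 0.38 on the left and 0.83 on the right, and without replicates 4 to 6 it is -2.54 and -2.19.

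Larval comparisons between groups other than vehicle unstressed gave no call among the members with all 24 libraries in the fit. The vehicle unstressed libraries still entered the shared estimate of spread in these tests. Stressed against unstressed fluoxetine larvae had 0 of 50 called by edgeR, where 2.33% of all genes were, with 0 at an unadjusted p under 0.05 and 0 called by DESeq2. Its median log2 fold change was -0.51, with 41 of 50 negative. The lowest p-values were those of itih3b.1, at 0.894 to 3.35 CPM (median 2.38) in fluoxetine stressed and 1.85 to 14.8 CPM (median 2.99) in fluoxetine unstressed heads (-1.13 ± 0.68, edgeR adjusted p = 0.543), and itih3a.1, at 1.44 to 2.95 CPM (median 1.95) in fluoxetine stressed and 1.32 to 8.93 CPM (median 3.91) in fluoxetine unstressed heads (-1.07 ± 0.65, adjusted p = 0.548). Both overlapped between the groups. Fluoxetine against vehicle in stressed larvae also had 0 of 50 called, where 5.19% of all genes were, with 2 at an unadjusted p under 0.05, 0 called by DESeq2 and a median of -0.07. These 2 were apoa4a, at 0.785 to 2.88 CPM (median 1.61) in fluoxetine stressed and 0.379 to 1.03 CPM (median 0.605) in vehicle stressed heads (1.33 ± 0.52, adjusted p = 0.139), and itih6, at 0.138 to 0.914 CPM (median 0.241) in fluoxetine stressed and 0.173 to 1.1 CPM (median 0.689) in vehicle stressed heads (-1.04 ± 0.49, adjusted p = 0.23). apoa4a passed, at 0.0108, when vehicle unstressed replicates 1 to 3 were left out of the shared fit. For stress in fluoxetine larvae, 3 of 50 members were lower at an unadjusted p under 0.05 without replicates 1 to 3. Without replicates 4 to 6, 7 of 51 were lower, and none was called in either setting. For fluoxetine in stressed larvae the unadjusted count was 5, with 1 call, in each setting. The share of all genes at this unadjusted threshold is not reported here.

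The difference between the stress effects in fluoxetine and in vehicle larvae was tested as an interaction, which has the vehicle unstressed group in it. None of 50 members was called by edgeR, where 0.133% of all genes were, while 10 were positive at an unadjusted p under 0.05 and DESeq2 called 1, apoa4a. The share of all genes at that unadjusted threshold is not reported here. The lowest p-values were those of apoa4a (2.69 ± 0.71, edgeR adjusted p = 0.131) and c8a (2.25 ± 0.76, adjusted p = 0.202). The median over the members was 1.32 with all libraries and -0.89 without vehicle unstressed replicates 1 to 3, where none was called. Leaving out those 3 libraries shifts this median in advance, since they were singled out by the members' own levels. Without replicates 4 to 6 the median was 2.12, with 39 positive and 1 negative among the calls. The share of all genes called in that last setting is not reported here.

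In the adult telencephalon the clearest change among the members was that of fga, the fibrinogen alpha chain gene, which was higher after stress in both exposure groups and lower in fluoxetine stressed than in vehicle stressed fish. Its level was at 0.893 at the lowest, 1.2 at the median and 1.38 CPM at the highest in fluoxetine stressed fish and at 0.206 at the lowest, 0.305 at the median and 0.366 CPM at the highest in fluoxetine unstressed fish. In vehicle stressed fish it was at 1.93 at the lowest, 2.88 at the median and 3.64 CPM at the highest, and in vehicle unstressed fish at 0.114 at the lowest, 0.374 at the median and 0.707 CPM at the highest. All stressed libraries were above all unstressed ones, and all fluoxetine stressed libraries were below all vehicle stressed ones. The counts behind these values were 17 to 28 per library in fluoxetine stressed, 3 to 7 in fluoxetine unstressed, 34 to 82 in vehicle stressed and 2 to 9 in vehicle unstressed fish. Only its stressed libraries brought fga past the count filter. Its stress calls are therefore those of a member admitted through the groups where it was high. In vehicle fish the log2 fold change with stress was 2.97 ± 0.28 (SE, n = 6 each, edgeR adjusted p = 1.13e-08), and in fluoxetine fish 1.95 ± 0.28 (adjusted p = 3.45e-05). Between stressed groups, fluoxetine minus vehicle was -1.27 ± 0.24 (adjusted p = 0.00234), and between unstressed groups -0.25 ± 0.33 (adjusted p = 0.711). The test of the difference between the 2 stress effects gave -1.02 ± 0.41, which did not pass (adjusted p = 0.275). Within each of the 2 ranges of library numbers in the labels (1 to 24 and 25 to 48), the stress effect was 2.99 and 2.92 in vehicle fish and 1.98 and 1.93 in fluoxetine fish, called in each, while fluoxetine minus vehicle in stressed fish was -1.02 and -1.50 and not called.

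The other fibrinogen chains and the liver marker stayed near 0 in all telencephalon groups. FGB did not exceed 0.209 CPM and FGG did not exceed 0.286 CPM in any telencephalon library, and neither passed the count filter. The hepatocyte marker fabp10a was at 0 to 0.0468 CPM in fluoxetine stressed, 0 to 0.113 CPM in fluoxetine unstressed, 0 to 0.181 CPM in vehicle stressed and 0 to 0.114 CPM in vehicle unstressed telencephalon. Red blood cell genes summed to 397 to 707 CPM in fluoxetine stressed, 275 to 616 CPM in fluoxetine unstressed, 239.6 to 468 CPM in vehicle stressed and 271 to 427 CPM in vehicle unstressed libraries, which overlap. Other lists of genes outside the rule did move with stress: of the 14 lists summed, 3 were higher in all vehicle stressed than in all vehicle unstressed telencephalon libraries and 4 in all fluoxetine stressed than in all fluoxetine unstressed ones. Genes of the kidney (pronephros) list summed to 928 to 1060 CPM in fluoxetine stressed and 603 to 762 CPM in fluoxetine unstressed libraries. Their sum was 760 to 1100 CPM in vehicle stressed and 497 to 624 CPM in vehicle unstressed libraries. Which genes gave this sum in dissected brain is not reported here, and it is not read as kidney tissue. Choroid plexus and meninges genes summed to 3985 to 6956 CPM in fluoxetine stressed and 2266 to 3916 CPM in fluoxetine unstressed libraries, without overlap, and to 1361 to 4997 CPM in vehicle stressed and 1585 to 3822 CPM in vehicle unstressed libraries, with overlap. Acute-phase and coagulation genes were the other lists without overlap, in both exposure groups. The part of these lists in the change of fga was not tested. In the hypothalamus, scaled apart from the telencephalon, fga was at 0.0657 to 0.318 CPM (median 0.181) in fluoxetine stressed, 0 to 0.116 CPM (median 0.0502) in fluoxetine unstressed, 0.0427 to 0.514 CPM (median 0.378) in vehicle stressed and 0 to 0.464 CPM (median 0.111) in vehicle unstressed fish, with at most 8 counts in a library. It did not pass the filter there, and without a filter its log2 fold change with stress was 1.06 in vehicle fish (edgeR adjusted p = 0.265) and 1.71 in fluoxetine fish (adjusted p = 0.234).

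Stress in vehicle fish called 3 of 12 members tested in the telencephalon, all higher, where 26.8% of all genes were called and 15% were called higher. Beside fga, which was tested only because of its stressed libraries, they were c3b.1 and c3b.2, copies of complement C3. c3b.1 was at 14.7 to 23.5 CPM (median 20.4) in vehicle stressed and 8.61 to 16 CPM (median 10.7) in vehicle unstressed fish, with overlap in 1 unstressed library. Its log2 fold change was 0.80 ± 0.14 (SE, n = 6 each, edgeR adjusted p = 0.000228). c3b.2 was at 5.14 to 10.4 CPM (median 7.78) in vehicle stressed and 4.04 to 5.66 CPM (median 4.51) in vehicle unstressed fish, with a fold of 0.65 ± 0.17 (adjusted p = 0.00675), and its groups overlapped. Of these 2 copies only c3b.1 passed within library numbers 1 to 24, and neither did within 25 to 48 (adjusted p = 0.052 for c3b.1). The remaining 9 members were not called, among them apoc1 at 0.37 ± 0.15 (adjusted p = 0.0646) and serpina10a at 0.09 ± 0.07 (adjusted p = 0.332).

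In fluoxetine fish stress called 1 of 12 members, fga, where 13.6% of all genes were called. As above, fga was tested only because of its stressed libraries. c3b.1 was at 17.8 to 23.5 CPM (median 20.1) in fluoxetine stressed and 13.4 to 19.1 CPM (median 15.6) in fluoxetine unstressed fish (0.34 ± 0.14, edgeR adjusted p = 0.104). Fluoxetine against vehicle in unstressed fish called 1 of 12, c3b.1, at 0.53 ± 0.14 (adjusted p = 0.0307), where 7.81% of all genes were called. Of the unstressed vehicle libraries 5 were below all unstressed fluoxetine ones, and 1 lay inside their range. This call was lost in a fit of those 2 groups alone (adjusted p = 0.065), within each range of library numbers and without replicate 1, 3, 4 or 5. c3b.2, at 4.98 to 8.72 CPM (median 6.54) in fluoxetine unstressed fish, gave 0.53 ± 0.17 (adjusted p = 0.0537). Fluoxetine against vehicle in stressed fish called 1 of 12, fga, where 3.51% of all genes were called. serpina10a was at 496 to 575 CPM (median 538) in fluoxetine stressed and 538 to 703 CPM (median 620.1) in vehicle stressed fish (-0.21 ± 0.07, adjusted p = 0.0712), and passed with DESeq2. None of 12 interactions was called by edgeR, where 0.8% of all genes were, with 2 negative at an unadjusted p under 0.05 and 0 called by DESeq2. These were fga and c3b.1 (-0.46 ± 0.20, adjusted p = 0.333). The share of all genes at that unadjusted threshold is not reported here.

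**Figure D5:**
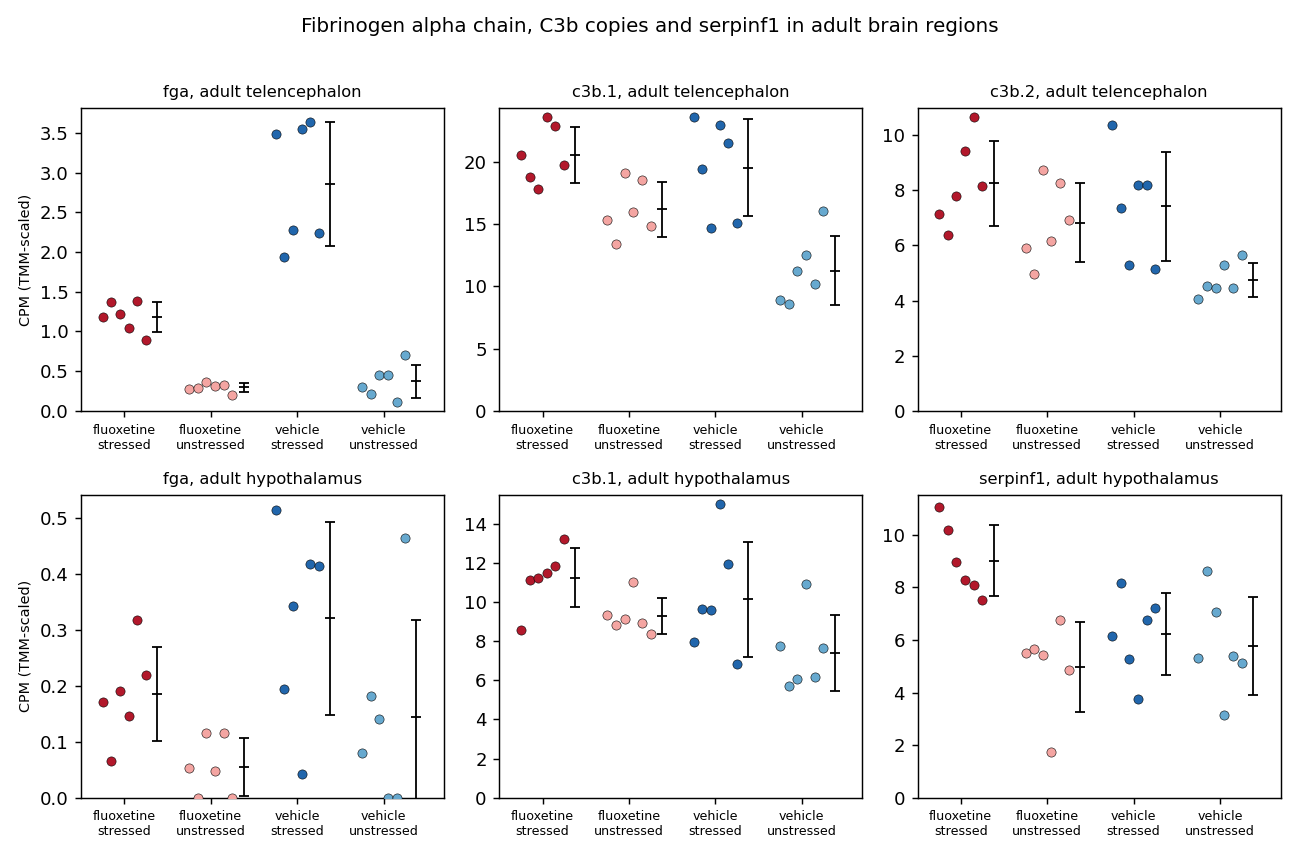
CPM of fga, c3b.1 and c3b.2 in adult telencephalon (top) and of fga, c3b.1 and serpinf1 in adult hypothalamus (bottom), by group, with 1 point per pool of 5 fish and the mean with its SD beside the points (n = 6 each). Telencephalic fga is above 0.8 CPM in all stressed libraries and below it in all unstressed ones, while its hypothalamic values stay at or under 0.514 CPM.

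Several coagulation and acute-phase genes outside the rule were also higher after stress in the telencephalon, in a contrast that called 15% of all genes higher. Of 16 other coagulation genes tested, 5 rose in vehicle fish and none fell, and those given here are named because the count is small, after their values were seen. FGL2, a fibrinogen-related protein of immune cells, was at 10.6 to 17.1 CPM in fluoxetine stressed, 3.15 to 5.8 CPM in fluoxetine unstressed, 15.1 to 33.1 CPM in vehicle stressed and 3.21 to 5.67 CPM in vehicle unstressed fish. Its stressed libraries were all above its unstressed ones, with log2 fold changes of 2.26 ± 0.21 in vehicle fish (edgeR adjusted p = 9.18e-09) and 1.65 ± 0.20 in fluoxetine fish (adjusted p = 3.16e-06). Others of the 5 were f8, a cofactor of factor IX, at 1.94, f3a, tissue factor, at 1.16, and F7 at 1.09. Of 9 acute-phase genes 3 rose and none fell: SOCS3 ENSDARG00000025428, the feedback inhibitor of cytokine receptors, at 2.61, STAT3 at 1.11 and CEBPB at 0.86. STAT3 and CEBPB encode transcription factors of the acute-phase response. Of 12 other complement genes 2 rose, c7b at 0.58 and CLU at 0.42, and none fell, a share near the background. The counts were 7 higher and 2 lower of 28 for lipoprotein receptors, enzymes and transfer proteins, 1 higher and 1 lower of 17 for other hepatocyte genes (RBP4 at 1.93 among them) and 0 higher and 1 lower of 7 for liver transcription factors.

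In the adult hypothalamus stress in vehicle fish called 1 of 11 members tested, c3b.1, where 36.8% of all genes were called. c3b.1 was at 6.81 to 15 CPM (median 9.59) in vehicle stressed and 5.7 to 10.9 CPM (median 6.92) in vehicle unstressed fish, with overlapping groups and a log2 fold change of 0.46 ± 0.17 (SE, n = 6 each, edgeR adjusted p = 0.0345). The call was lost in a fit of the 2 groups alone, within either range of library numbers, and without replicate 2, 3 or 5. Without vehicle stressed replicates 1 and 4, a setting chosen after seeing the data, the adjusted p was 0.092. apoc1 was at 273 to 412 CPM (median 338) in vehicle stressed and 239 to 336 CPM (median 272) in vehicle unstressed fish (0.29 ± 0.13, adjusted p = 0.0926).

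Stress in fluoxetine fish called 1 of 11, serpinf1, where 6.49% of all genes were called. serpinf1 encodes pigment epithelium-derived factor, a secreted serpin that does not inhibit proteases. It was at 7.54 at the lowest, 8.62 at the median and 11.1 CPM at the highest in fluoxetine stressed fish and at 1.72 at the lowest, 5.46 at the median and 6.75 CPM at the highest in fluoxetine unstressed fish, without overlap. In vehicle stressed fish it was at 3.76 to 8.17 CPM (median 6.47) and in vehicle unstressed fish at 3.14 to 8.61 CPM (median 5.36), which overlap. The log2 fold change in fluoxetine fish was 0.86 ± 0.24 (edgeR adjusted p = 0.034) and in vehicle fish 0.11 ± 0.24 (adjusted p = 0.76), and the interaction was 0.75 ± 0.34 (adjusted p = 0.307). The call in fluoxetine fish held without replicate 4 and was lost without any other single replicate and within either range of library numbers. In the telencephalon serpinf1 was not called in any comparison.

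Fluoxetine against vehicle called none of 11 members in unstressed fish, where 24.4% of all genes were called, with 0 at an unadjusted p under 0.05 by edgeR and 1 called by DESeq2, apoa1a. apoa1a was at 0 to 0.129 CPM (median 0.0288) in fluoxetine unstressed and 0 to 3.23 CPM (median 0.267) in vehicle unstressed fish, of which vehicle unstressed replicate 1 gave the highest value. The 2 lowest p-values by edgeR were those of c3b.1, at 8.38 to 11 CPM (median 9.04) in fluoxetine unstressed fish (0.33 ± 0.17, adjusted p = 0.154), and APOBEC2 ENSDARG00000018881, at 0.346 to 0.923 CPM (median 0.714) in fluoxetine unstressed and 0.546 to 1.86 CPM (median 0.957) in vehicle unstressed fish (-0.55 ± 0.32, adjusted p = 0.213). In stressed fish none of 11 was called, where 2.07% of all genes were, with 2 at an unadjusted p under 0.05 and 0 called by DESeq2. They were c8b, at 1.03 to 2.69 CPM (median 1.46) in fluoxetine stressed and 1.48 to 3.54 CPM (median 2.59) in vehicle stressed fish (-0.69 ± 0.24, adjusted p = 0.142), and serpinf1 (0.53 ± 0.24, adjusted p = 0.28). None of 11 interactions was called, where 0.511% of all genes were, with 1 at an unadjusted p under 0.05, serpinf1, and 0 called by DESeq2. The next lowest p was that of apoc1 (-0.26 ± 0.19, adjusted p = 0.53). For these hypothalamus comparisons the share of all genes at an unadjusted p under 0.05 is not reported here.

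The lists of genes outside the rule were counted in the hypothalamus as well, where stress called 20.3% of all genes higher in vehicle fish and 3.6% in fluoxetine fish. In vehicle fish 4 of 9 acute-phase genes rose and none fell: SOCS3 ENSDARG00000025428 at 2.99, STAT3 at 1.64, crp1, a C-reactive protein gene, at 1.49, and CEBPB at 0.95. Of 13 coagulation genes 4 rose and none fell: f8 at 1.89, f3a at 1.43, PLAT, tissue plasminogen activator, at 1.29, and FGL2 at 0.83. These genes were named because the counts are small, after their values were seen. In fluoxetine fish the acute-phase list had 2 higher and 0 lower of 9, the coagulation list 4 higher and 0 lower of 13 and the complement list 2 higher and 0 lower of 14. The same lists in the telencephalon of fluoxetine fish, where 6.35% of all genes were called higher, had 4 higher and 0 lower of 9, 2 higher and 1 lower of 16 and 1 higher and 0 lower of 12. In vehicle fish complement genes outside the rule had 3 higher and 1 lower of 14, lipoprotein receptors, enzymes and transfer proteins 9 higher and 3 lower of 28, other hepatocyte genes 1 higher and 4 lower of 17 and liver transcription factors 1 higher and 1 lower of 9. With 36.8% of all genes called in either direction in vehicle fish, the coagulation and complement counts in either direction lie near that background. All coagulation calls were higher, where 20.3% of all genes were called higher. In each exposure group 3 summed lists were higher in all stressed than in all unstressed hypothalamus libraries. Acute-phase genes were among them in both, at 215 to 289 CPM in vehicle stressed and 126 to 172 CPM in vehicle unstressed libraries. Complement genes outside the rule were among them in vehicle fish only, and other coagulation genes in fluoxetine fish only. In both exposure groups the summed kidney (pronephros) list did not overlap between stressed and unstressed hypothalamus. Its sum was 1146 to 1371 CPM in fluoxetine stressed and 755 to 899 CPM in fluoxetine unstressed libraries. In vehicle fish it was 910.4 to 1193 CPM in stressed and 583 to 712 CPM in unstressed libraries. The sum of the kidney list is not read as kidney tissue in dissected brain, and the part of these lists in the members' calls was not tested.

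The members with the most counts in adult brain overlapped between groups where they were not called. In the telencephalon serpina10a was at 496 to 575 CPM (median 538) in fluoxetine stressed, 482 to 602 CPM (median 559) in fluoxetine unstressed, 538 to 703 CPM (median 620.1) in vehicle stressed and 526 to 651 CPM (median 581) in vehicle unstressed fish, and apoc1 at 148 to 236 CPM (median 204) in fluoxetine stressed, 149 to 195 CPM (median 179.9) in fluoxetine unstressed, 144 to 244 CPM (median 198) in vehicle stressed and 99.3 to 217 CPM (median 150.5) in vehicle unstressed fish. VTN ENSDARG00000053831 was at 2.67 to 6.88 CPM (median 4.53) in fluoxetine stressed, 2.26 to 4.74 CPM (median 3.63) in fluoxetine unstressed, 2.94 to 6.12 CPM (median 5.26) in vehicle stressed and 1.98 to 5.07 CPM (median 3.38) in vehicle unstressed fish. Groups that were compared with each other overlapped for each of these genes. c8b was at 1.1 to 2.32 CPM (median 1.44) in fluoxetine stressed, 1.2 to 3.29 CPM (median 2.12) in fluoxetine unstressed, 1.46 to 3.54 CPM (median 2.02) in vehicle stressed and 1.06 to 3.54 CPM (median 2.88) in vehicle unstressed telencephalon, and itih3a.2 at 2.86 to 4.31 CPM (median 3.58) in fluoxetine stressed, 2.13 to 6.22 CPM (median 3.52) in fluoxetine unstressed, 1.69 to 6.47 CPM (median 3.71) in vehicle stressed and 2.42 to 3.55 CPM (median 2.79) in vehicle unstressed telencephalon. serpinf1 was at 2.52 to 7.03 CPM (median 5.26) in fluoxetine stressed, 2.18 to 6.91 CPM (median 3.91) in fluoxetine unstressed, 2.4 to 7.69 CPM (median 4.94) in vehicle stressed and 2.11 to 5.16 CPM (median 3.54) in vehicle unstressed telencephalon. None of these 6 genes was called there. In the hypothalamus serpina10a was at 528 to 724 CPM (median 636) in fluoxetine stressed, 521 to 669.6 CPM (median 586) in fluoxetine unstressed, 583 to 754 CPM (median 652) in vehicle stressed and 593 to 660.1 CPM (median 653) in vehicle unstressed fish, and VTN ENSDARG00000053831 at 12.4 to 24.6 CPM (median 16.1) in fluoxetine stressed, 13.3 to 24.5 CPM (median 16.3) in fluoxetine unstressed, 13.7 to 23.3 CPM (median 16.5) in vehicle stressed and 15.5 to 19.9 CPM (median 16.6) in vehicle unstressed fish. c3b.2 was at 2.86 to 5.71 CPM (median 4.62) in fluoxetine stressed, 2.77 to 5.17 CPM (median 3.78) in fluoxetine unstressed, 3.1 to 8.41 CPM (median 3.75) in vehicle stressed and 2.04 to 4.65 CPM (median 3.9) in vehicle unstressed fish. itih3a.2 was at 2.92 to 8.14 CPM (median 4.93) in fluoxetine stressed, 1.57 to 8.0 CPM (median 2.12) in fluoxetine unstressed, 1.89 to 5.98 CPM (median 3.31) in vehicle stressed and 1.68 to 3.96 CPM (median 2.43) in vehicle unstressed hypothalamus. None of these 4 was called in the hypothalamus, where vehicle stressed replicate 4 held the highest level of c3b.2 and fluoxetine stressed replicate 2 that of itih3a.2.

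Between brain regions of unstressed vehicle fish, 5 of 11 members tested differed, where 35.9% of 17245 genes did. These values come from a joint scaling of the 12 libraries. VTN ENSDARG00000053831 was higher in hypothalamus, with 15.5 to 19.9 CPM (median 16.6) in hypothalamus and 1.98 to 5.07 CPM (median 3.38) in telencephalon on the separate scales, without overlap. Its log2 fold change was 2.40 ± 0.19 (SE, n = 6 each, edgeR adjusted p = 1.18e-07). apoc1 was also higher in hypothalamus, at 239 to 336 CPM (median 272) against 99.3 to 217 CPM (median 150.5) in telencephalon, without overlap and with a fold of 0.93 ± 0.16 (adjusted p = 0.000226). serpinf1 (0.75 ± 0.26, adjusted p = 0.0366) and apoa1b (1.01 ± 0.35, adjusted p = 0.0339) were higher in hypothalamus with overlapping libraries, and apoa1b was not called when any of replicates 2 to 6 was left out. c3b.1 was lower in hypothalamus, at 5.7 to 10.9 CPM (median 6.92) against 8.61 to 16 CPM (median 10.7) in telencephalon (-0.53 ± 0.18, adjusted p = 0.0319), with overlap. serpina10a (0.20 ± 0.08, adjusted p = 0.0561) passed with the replicate block (0.0397), with library-number range as a term (0.019) and with DESeq2 (0.0322). apoa2, which did not pass the filter on counts, was called higher in hypothalamus by DESeq2 (3.54, adjusted p = 0.000725) and by edgeR without a filter (3.32, adjusted p = 0.00193). serpina10a, VTN ENSDARG00000055388 (0.26 ± 0.23), c3b.2 (-0.33 ± 0.20), c8b (0.20 ± 0.26), itih3a.2 (-0.11 ± 0.20) and APOBEC2 ENSDARG00000018881 (0.54 ± 0.32) were not called in the fit described. Of the 14 lists of genes outside the rule, 5 had higher sums on the separate scales in all hypothalamus than in all telencephalon libraries of this group and none lower. Among them, choroid plexus and meninges genes summed to 8090 to 10035 CPM in hypothalamus and 1585 to 3822 CPM in telencephalon on the separate scales, and other hepatocyte genes to 535 to 745 CPM in hypothalamus and 135 to 477 CPM in telencephalon. Liver transcription factor genes, also among the 5, were separated by little, with a lowest sum of 159.4 CPM in hypothalamus and a highest of 156.7 CPM in telencephalon. Sums on a joint scale are not reported here. The part of these lists in the regional differences was not tested. The liver marker fabp10a was barely detected in adult brain. Which genes gave the sum of the hepatocyte list there is not reported here, and its source was not tested. The 2 VTN genes had regional folds of different size, and a test of that difference was not made.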

How the data were processed

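Counts per gene from 72 zebrafish libraries were deposited by the authors as raw read counts, and per the labels' protocols libraries were TruSeq stranded mRNA libraries from column-purified RNA. The submitters' processing notes name bcl2fastq 2.17.1.14, cutadapt, STAR 2.5 and DESeq2. The sources used here do not give the counting program, strand setting, build or annotation. Symbols were matched to 29178 of 31901 Ensembl identifiers. The members and all gene lists were chosen with earlier results of these data known.

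Each tissue's 24 libraries were fitted together with edgeR 4.0.16 in R 4.3.3 (filterByExpr, TMM, robust quasi-likelihood fit and test on the counts), with 4 group means and Benjamini-Hochberg adjustment over all genes tested at a threshold of 0.05. The regions were compared in 12 unstressed vehicle libraries. DESeq2 1.42.0 was an alternative. The fit was tested on simulated counts. Log2 CPM for likeness used a prior count of 2. Totals per library and the spread between pools set the precision, and low counts limit members under 1 CPM.

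Every member may be named. Values in full were given for the 8 members with the highest levels in each tissue, and in each comparison for up to 5 called members by p, or the 2 lowest p where none passed. Of other genes, up to 4 per list by level, the 10 most like the member mean, and checks of the labels were named. Marker lists covered hepatocyte, liver transcription factor, coagulation, complement, lipoprotein, acute-phase, pancreas, enterocyte, muscle, kidney, red blood cell, choroid plexus and meninges, neuron and epidermis genes. Promoter motifs were not analysed here, and a few genes of the lists and label checks are not reported here. Replicate blocks, single groups, library-number ranges, filters and omitted replicates were the alternatives.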

Additional observations from a re-analysis of the deposited data

Results flagged for a closer look

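Within the groups of 6 libraries, 152 sets of values were examined for a library standing apart. In 15 sets its gap to its nearest neighbour exceeded the 95% critical value of Dixon's test. The nominal rate of 1 in 20 holds for independent, normally distributed values. These sets share libraries, and a sum over members was examined beside the members, so the count is not compared with that rate. In larval heads, fluoxetine unstressed replicate 6 stood above the rest of its group for 6 of the 15 sets. It held a summed 3959 CPM of the members outside the adult set, against 796 to 1695 CPM in the other 5 libraries. Its apoa1b was 743 CPM against 97 to 288 CPM, its apoa2 582 CPM against 54.2 to 233 CPM and its fetub 543 CPM against 100.8 to 249 CPM. Its itih3b.1 was 14.8 CPM against 1.85 to 5.51 CPM and its itih6 1.43 CPM against 0.193 to 0.503 CPM. Whether other tissue entered that pool was not tested. In vehicle unstressed replicate 1 apoa1a was 2285 CPM, against 191 to 931 CPM in the other 5. In fluoxetine stressed heads, apoc2 was 21.6 CPM in replicate 1 against 41.8 to 49.6 CPM in the others, and itih6 was 0.914 CPM in replicate 6 against 0.138 to 0.314 CPM.

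In the hypothalamus, VTN ENSDARG00000053831 was 24.6 CPM in fluoxetine stressed replicate 5 against 12.4 to 16.6 CPM in the others, and c8b was 2.69 CPM in fluoxetine stressed replicate 1 against 1.03 to 1.58 CPM. Fluoxetine unstressed replicate 4 had c3b.1 at 11 CPM against 8.38 to 9.34 CPM and itih3a.2 at 8.0 CPM against 1.57 to 2.77 CPM. Vehicle stressed replicate 4 had c3b.2 at 8.41 CPM against 3.10 to 4.03 CPM. In the telencephalon c8b was 2.32 CPM in fluoxetine stressed replicate 5 against 1.1 to 1.5 CPM.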

How the results depend on the processing

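Counts of members called are given here as the reported value and then the value under each change that moved it by over 1.5 times, with some smaller moves. The share of all genes called under each change is not reported here, so these counts have no background beside them. Leaving out one replicate number from every group gave 1 to 39 larval calls for stress in vehicle (29 reported) and 0 to 31 for fluoxetine in unstressed heads (9 reported), with the lowest counts without replicate 1, 2 or 3. It gave 0 to 1 for stress in vehicle hypothalamus, 0 to 2 for stress in fluoxetine hypothalamus (1 reported each), 3 to 6 for stress in vehicle telencephalon (3 reported), 1 to 2 for fluoxetine in stressed and 0 to 3 for fluoxetine in unstressed telencephalon (1 reported each), and 2 to 4 between regions (5 reported). Without larval vehicle unstressed replicates 1 to 3 the counts were 0 for stress in vehicle, 0 for fluoxetine in unstressed and 1 for fluoxetine in stressed heads (0 reported), and without replicates 4 to 6 they were 45, 46 and 1, with 40 interactions (0 reported). Those 2 settings leave 3 libraries in that group and divide it by the members' own levels, so neither is an independent check. Without replicates 4 to 6, apobb.2 was tested only through the 3 libraries where it was high. Without replicates 1 to 3 the log2 fold turned to 0.16 for VTN ENSDARG00000055388 and 0.026 for apoc2 with stress in vehicle, and to 0.057 for apoc2 and 0.041 for apoc1 with fluoxetine in unstressed heads.

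Pairing by replicate number was looked for as a correlation above 0.1 for every number, and 0 of the 18 pairs of groups met that. The most was 5 of 6 numbers, for fluoxetine unstressed with vehicle unstressed hypothalamus and for fluoxetine unstressed with vehicle stressed heads. Pools with different numbers were not compared, so this check cannot show whether replicate numbers pair the samples. The replicate block gave 6 larval calls for stress in vehicle, 2 for fluoxetine in unstressed heads, and 2 each for fluoxetine in unstressed and in stressed telencephalon. With only the 2 groups compared in the fit, the larval counts were 1 for stress in vehicle, 0 for fluoxetine in unstressed and 2 for fluoxetine in stressed heads, and the adult ones 0 for stress in vehicle hypothalamus, 2 for stress in fluoxetine telencephalon and 0 for fluoxetine in unstressed telencephalon. DESeq2 gave 34 for larval stress in vehicle, 7 between regions, 15 for fluoxetine in unstressed heads, 1 larval interaction, 4 for stress in vehicle and 1 for fluoxetine in unstressed hypothalamus, and in the telencephalon 5 for stress in vehicle and 2 each for stress in fluoxetine, fluoxetine in unstressed and fluoxetine in stressed fish. No filter gave 5 for stress in vehicle and 1 for fluoxetine in unstressed hypothalamus, and 6 for stress in vehicle telencephalon.

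Within library numbers 1 to 24 and within 25 to 48 the counts were 0 and 0 for both stress effects in the hypothalamus, and 0 and 0 for both fluoxetine effects in the telencephalon, while stress in vehicle telencephalon had 2 and 1. These fits hold 12 libraries each. The range as a term gave 2 for each fluoxetine effect in the telencephalon. In numbers 25 to 48 APOBEC2 ENSDARG00000018881 turned to 0.19 for fluoxetine in unstressed hypothalamus. Of 451 gene values recomputed, 358 kept side and sign. The causes of these changes were not tested. Members under 1 CPM rest on few counts in adult brain, where 43 in hypothalamus and 42 in telencephalon could not be tested.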
